A study of Drosophila melanogaster with 2 samples.

Results

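The 10 genes described here are heat shock and chaperone genes of Drosophila melanogaster and the regulator of the heat shock response, followed through the binding sites of chameau (chm), a histone acetyltransferase of the MYST family. They were named in a list, 10 of 13968 protein-coding genes on the 7 chromosome arms: Hsp22, Hsp23, Hsp26, Hsp27, Hsp67Ba, Hsp67Bc, Hsp83, Hsf, DnaJ-1 and Hsc70-4. A binding peak was given to a gene when its summit, the base of highest signal, lay inside the gene or within 2 kb of it, and genes without a peak were kept in every count. Chromatin was taken from whole embryos, collected from 0 to 24 h of age, of the fly strain chm-GFP. These flies carry a transgene that expresses chm fused to eGFP, and an antibody against GFP was used to recover the sonicated DNA. Both samples, biological replicates 1 and 2, belonged to this 1 group, so there was no other genotype, age or treatment to compare. The labels name no heat treatment, do not give the promoter that drives the fusion, and record the sex as not collected. A whole embryo mixes all tissues and stages up to 24 h, and bound cells of a few tissues cannot be told apart from weaker binding in all of them.

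Heat shock genes encode chaperones, proteins that hold or refold other proteins, and they are transcribed strongly when cells are heated. Heat shock factor, the product of Hsf, binds heat shock elements, which are repeats of GAA and TTC in alternating orientation, and GAGA factor, encoded by Trl, binds GAGAG repeats at several of these promoters. In flies, several small heat shock genes and Hsp83 are also transcribed during normal development without heat.

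The peaks come from deposited lists cut at a low irreproducible discovery rate (IDR), a value that is small for peaks that rank high in both of 2 sets. The conservative list, built from both replicates, held 4202 peaks, the pooled list 6176, the list of replicate 1 had 3554 and that of replicate 2 had 4106. Longer ranked lists, with 88563 to 118204 peaks, also hold peaks that miss the threshold. The height of a peak is given as the signal value of the peak caller, on an unstated scale, so signals are compared within a list. Its median was 94.1 in the conservative list, with a middle 50% from 72.5 to 136. The lists give no read totals, so the depth behind each peak is unknown.

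A conservative summit lay inside or within 2 kb of 9 of the 10 genes, Hsc70-4 being the exception, and of 29.0% of all protein-coding genes. The count was also 9 when any base of a peak was enough (29.6% of all genes) and 9 in the pooled list (35.7%), and it was 10 with a window of 5 kb (40.2%) and 10 for ranked peaks of any height (80.7%). In the conservative list there were 7 peaks, because the small heat shock genes stand close together and share theirs. Given to the nearest start alone, the peaks belonged to 6 of the 10 genes (16.5% of all genes): Hsp83, Hsp27, Hsp26, Hsp22, DnaJ-1 and Hsf. The same 6 had a summit within 500 bp of one of their own starts, against 16.8% of all genes. The genes were proposed with earlier results of these data known, so these shares are described and not tested.

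**Figure D1:**
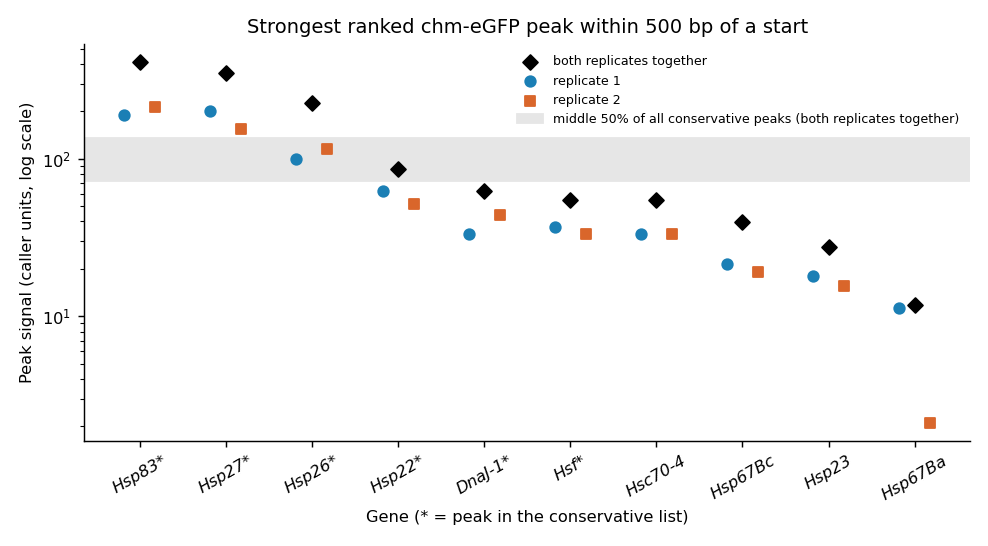
Peak signal (log scale, caller units) of the strongest ranked peak within 500 bp of a start of each of the 10 genes, for both replicates together (diamonds), replicate 1 (circles) and replicate 2 (squares); each symbol is the strongest in its own list, and the grey band is the middle 50% of conservative peaks. Hsp83, Hsp27 and Hsp26 stand above the band at 412, 352 and 226, and Hsp67Ba is lowest at 11.8.

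The 7 peaks were spread over the list, from near its top to its weak end. Hsp83, which encodes the cytosolic Hsp90, had the strongest at a signal of 412, rank 94 of 4202, and the peak at Hsf was the weakest at 54.9, rank 3895. Of the 7, 4 were past the threshold in each replicate alone (50% of the shorter peak shared), as were 46.3% of all 4195 conservative peaks on the arms. These were both Hsp83 peaks and the peaks at Hsp27 and Hsp26.

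**Figure D2:**
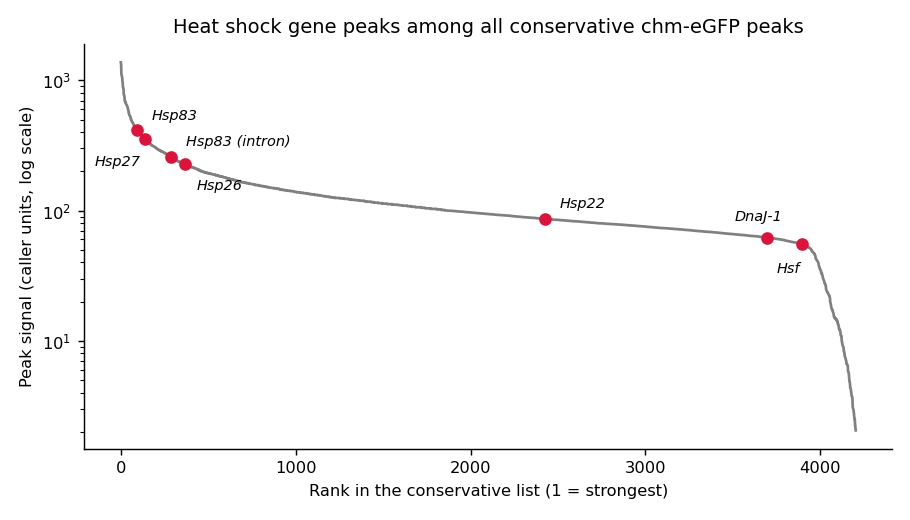
Signal (log scale, caller units) of the conservative peaks against their rank, with the 7 peaks of the heat shock genes as red points. The upper 4 points lie between ranks 94 and 370, Hsp22 lies at rank 2428, and DnaJ-1 and Hsf lie at ranks 3695 and 3895.

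The small heat shock genes of cytological region 67B encode proteins that bind unfolding proteins and keep them from clumping. On dm6 the stretch from Hsp67Bc to Hsp27 ran over 14184 bp, chr3L:9371511-9385694, and held 9 genes, 8 of them protein-coding. It held 3 conservative summits, at Hsp22, Hsp26 and Hsp27, with 3954 bp from Hsp22 to Hsp26 and 6374 bp from Hsp26 to Hsp27. The ranked list of the replicate pair had 17 summits in the same stretch, and apart from these 3 the strongest reached a signal of 41.0. The Hsp26 and Hsp27 summits lay upstream of their genes and the Hsp22 summit inside the Hsp22 gene, with weak signal between them.

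**Figure D3:**
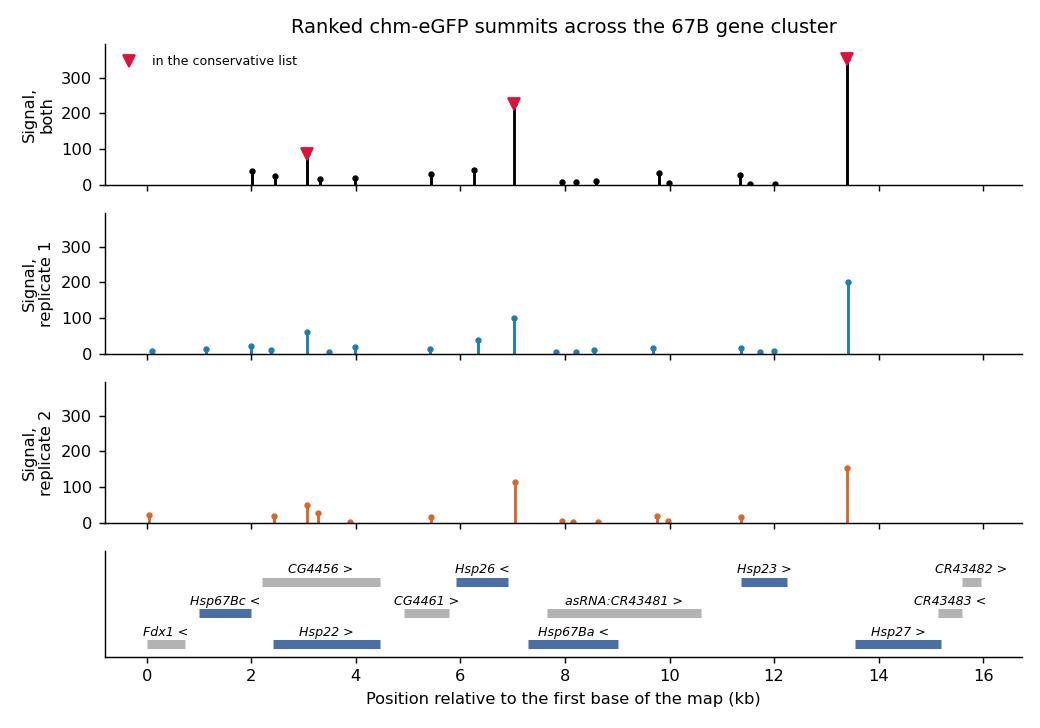
Signal of ranked summits along the 67B cluster (kb from the first base of the map) for both replicates together and for each replicate, with red triangles for conservative peaks and gene bodies below (blue for the listed genes, > and < for the strand). In all 3 tracks the tallest line stands just before Hsp27, the next before Hsp26 and the third beside Hsp22.

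The Hsp27 peak was the strongest of the cluster, with a signal of 352 at rank 142, above 96.6% of the list. Its signal was 201 in replicate 1 and 154 in replicate 2, a mean of 177 ± 33.2 (SD, n = 2). Replicate 1 was the higher at 1.31 times replicate 2, inside the middle 50% of that ratio over 3882 matched peaks, which was 0.819 to 1.42. The peak was chr3L:9383813-9383976, only 164 bp wide where the median width was 336 bp, and its summit lay between genes, 157 bp upstream of the Hsp27 start. The summits of the separate replicates fell within 19 bp of it.

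The 300 bases around this summit are shown because the strongest site of the cluster is here without a heat shock element at its centre. They are chr3L:9383706-9384005 on the plus strand of dm6, the strand of the gene, with the summit at base 201. Capitals mark a pair of heat shock units, GAANNTTC, which begins 20 bases into the stretch and lies 178 bp from the summit.

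Hsp27: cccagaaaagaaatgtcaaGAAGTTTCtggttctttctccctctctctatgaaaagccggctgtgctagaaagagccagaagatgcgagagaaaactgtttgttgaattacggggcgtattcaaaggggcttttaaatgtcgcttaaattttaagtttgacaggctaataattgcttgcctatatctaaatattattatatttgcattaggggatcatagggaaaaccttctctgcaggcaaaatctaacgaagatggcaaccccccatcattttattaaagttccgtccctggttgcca

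GAGAG or its reverse complement begins at bases 41, 43 and 87 of this stretch, more than 100 bp from the summit. Within 100 bp of the summit G and C made up 37.8% of bases, where the median of all conservative summits was 42.8%.

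Hsp26 had a signal of 226, at rank 370 and above 91.2% of the list. Replicate 1 gave 100.3 and replicate 2 gave 115, a mean of 108 ± 10.4 (SD, n = 2), so here replicate 2 was the higher. The peak, chr3L:9377364-9377699, had its summit between Hsp26 and Hsp67Ba. It lay 105 bp upstream of one annotated Hsp26 start and 157 bp upstream of the other, the same distance as at Hsp27.

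The Hsp26 stretch is shown because it holds both kinds of element side by side. It has 4 pairs of heat shock units and 9 GAGAG matches in 300 bases, with overlapping matches counted separately. It is chr3L:9377452-9377751 on the minus strand, the strand of the gene, with the summit at base 220 and the pairs (GAANNTTC or TTCNNGAA) in capitals.

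Hsp26: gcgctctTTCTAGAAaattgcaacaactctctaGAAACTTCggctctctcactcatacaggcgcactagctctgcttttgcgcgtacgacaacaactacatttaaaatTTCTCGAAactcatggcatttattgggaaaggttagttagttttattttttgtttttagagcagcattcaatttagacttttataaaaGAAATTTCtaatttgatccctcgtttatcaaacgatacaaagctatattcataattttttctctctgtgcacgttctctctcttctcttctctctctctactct

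The pairs begin at bases 8, 34, 109 and 197, and the last has its centre 19 bp from the summit. Of the GAGAG matches, 6 lie between base 257 and the end of the stretch, on the side of the gene, and 3 lie at bases 27, 44 and 46, beside the first pairs of heat shock units. Counted in the same way, at least 6 GAGAG matches occurred at Hsp26 in the 300 bases from 250 before to 50 after a start. This was so in 2.65% of all 19276 such promoters.

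Hsp22, whose protein is sent to mitochondria, had a peak of middling height, with a signal of 86.2 at rank 2428 and above 42.2% of the list. It read 62.9 in replicate 1 and 51.5 in replicate 2, a mean of 57.2 ± 8.08 (SD, n = 2). In replicate 1 it was past the threshold (global IDR 0.00179) and in replicate 2 it was not (0.01). The peak was chr3L:9373410-9373745, and its summit was 419 bp upstream of the inner Hsp22 start. That base is annotated as 5′ UTR of the longer Hsp22 transcript and as 3′ UTR of the overlapping gene CG4456, so the peak can be placed with either gene.

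The only pair of heat shock units within 250 bp of this summit lay 234 bp away, toward the inner start. It is shown in 26 bases, chr3L:9373800-9373825 on the plus strand, with the pair in capitals.

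Hsp22: agagccccaGAAACTTCcacggagtt

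The other 3 genes of the cluster had no summit of their own in the conservative list. Hsp23 counted through the Hsp27 peak, which lay 1141 bp beyond its end and 2024 bp from its start. Hsp67Ba counted through the Hsp26 peak, 270 bp beyond its end and 2002 bp from its start, and Hsp67Bc through the Hsp22 peak, 1081 bp upstream of its start. All 3 are lost when a peak counts for the nearest start alone.

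In the ranked list of the replicate pair these 3 starts still had peaks within 500 bp that missed the threshold. The strongest stood above 86.6% of that list at Hsp67Bc, 70.4% at Hsp23 and 26.0% at Hsp67Ba. The strongest within 500 bp of the Hsp67Bc start had a signal of 39.5, global IDR 0.344, and lay 28 bp upstream. Replicate 1 had 21.5 at 18 bp upstream. The strongest of replicate 2 there, 19.2, lay elsewhere, 455 bp upstream of the start. At Hsp23 the strongest in the list of the replicate pair was 27.7, global IDR 0.165, 31 bp upstream of the start, with 17.9 and 15.6. At Hsp67Ba it was 11.8, global IDR 0.744, 422 bp into the gene, with 11.2 and 2.11. Peaks of any rank are common, with 1 within 500 bp of a start in 65.9% of all genes, and all 10 genes had one. The pooled ranked list had the Hsp67Bc peak, again at 39.5, but 0 peaks within 500 bp of the Hsp23 and Hsp67Ba starts.

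The Hsp23 promoter is shown as a contrast, since it has pairs of heat shock units like those of Hsp26 but no conservative peak. It is the 250 bases before the start, chr3L:9381632-9381881 on the plus strand, with the pairs in capitals.

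Hsp23: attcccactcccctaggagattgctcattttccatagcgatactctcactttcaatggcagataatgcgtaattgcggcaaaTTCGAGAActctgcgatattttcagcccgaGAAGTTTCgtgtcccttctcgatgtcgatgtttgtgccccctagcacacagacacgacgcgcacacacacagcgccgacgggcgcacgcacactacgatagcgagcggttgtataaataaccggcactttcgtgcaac

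The pairs begin at bases 83 and 113, which is 168 and 138 bp before the start. At least 2 pairs were present in 1.87% of all promoters. Hsp23, with 2 pairs in its promoter, had a signal of 27.7 near its start. Hsp27 had 352 with none in its promoter window, although a pair lay 178 bp from its summit. Hsp26 had 226, with 3 pairs in the promoter window of its start at 9377427. A relation between pairs and signal was not tested.

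Hsp83 was the gene with the highest signal of the 10 and the only one with more than 1 conservative peak of its own. The promoter peak, chr3L:3193017-3193225, read 191 in replicate 1 and 213 in replicate 2, a mean of 202 ± 15.2 (SD, n = 2). It ranked 152 of 104106 ranked peaks in replicate 1 and 88 of 88563 in replicate 2. Its summit was 96 bp upstream of the start at 3193216 and 151 bp downstream of the other annotated start at 3192969, in the 5′ UTR of the longer transcript.

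In rank it stood among strong sites of unlike genes. The peaks just above it lay in an intron of sbb (signal 414) and 4 bp from the start of the ribosomal protein gene RpS27 (412). Those just below lay near Boot (411) and in an intron of Trl (409), 1539 bp from the nearest start.

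The pair of heat shock units nearest this summit is shown because the strongest peak of the 10 genes lies beside it. It is given in 26 bases, chr3L:3193139-3193164 on the plus strand, with the pair in capitals. Its centre lies 31 bp from the summit and its first base 68 bp before the start.

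Hsp83: aagcctctaGAAGTTTCtagagactt

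The second Hsp83 peak, chr3L:3194218-3194301, was 84 bp wide and lay in an intron, 1171 bp beyond the first and 1075 bp downstream of the inner start. Its signal was 258, rank 289. Replicate 1 gave 129.9 and replicate 2 gave 124, a mean of 127 ± 4.25 (SD, n = 2), and both replicates had their summit at the same base as the conservative list. The values of the replicates differed less here than at the promoter, and the intron peak was the lower in each replicate. At the promoter the summit of replicate 1 lay 19 bp from the conservative summit.

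The 300 bases around the intron summit are shown because they hold a strong site away from any annotated start. They are chr3L:3194111-3194410 on the plus strand, with the summit at base 181, and the capitals mark a pair of heat shock units that begins at base 24, its centre 154 bp from the summit.

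Hsp83 intron: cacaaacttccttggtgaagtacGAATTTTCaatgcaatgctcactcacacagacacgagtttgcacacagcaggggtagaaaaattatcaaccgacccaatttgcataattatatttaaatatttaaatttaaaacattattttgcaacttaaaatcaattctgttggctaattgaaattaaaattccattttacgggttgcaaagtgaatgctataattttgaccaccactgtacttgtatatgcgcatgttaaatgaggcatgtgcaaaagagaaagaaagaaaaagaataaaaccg

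No GAGAG match was found in this stretch. Within 100 bp of the summit G and C made up 27.9% of bases, and 2.22% of all conservative summits were lower. At the promoter summit the share was 48.3%, above 71.2% of summits, so the 2 sites of Hsp83 lay in sequence of unlike composition.

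**Figure D4:**
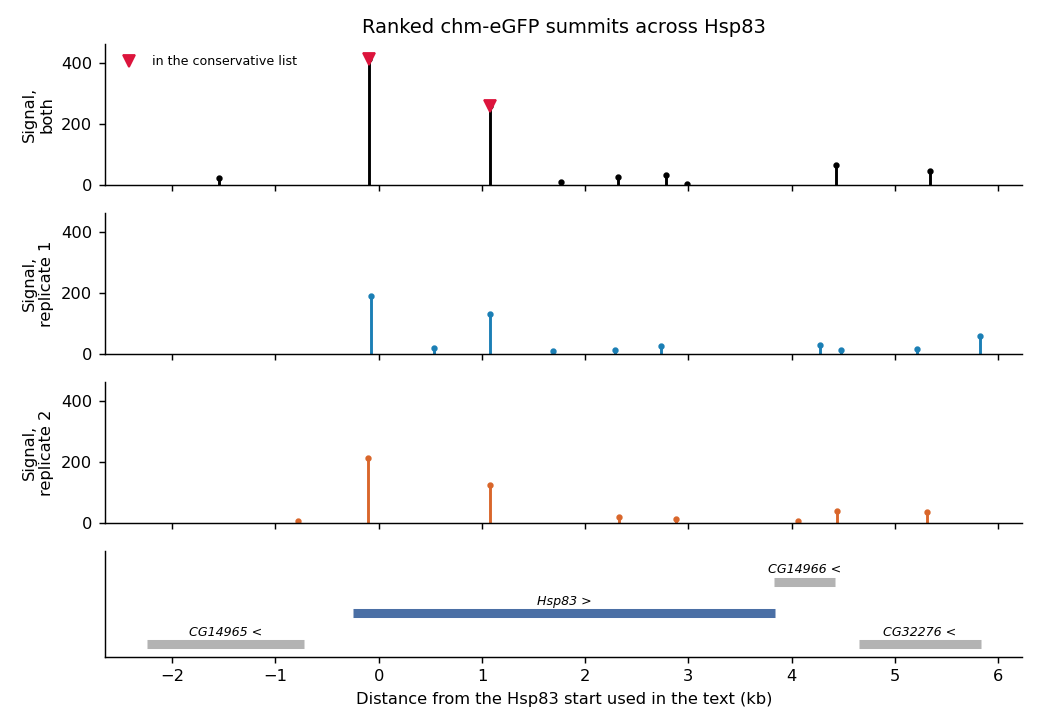
Signal of ranked summits around Hsp83 (kb from its inner start) for both replicates together and for each replicate, with conservative peaks as red triangles and gene bodies below. The lines at the promoter (412) and in the intron (258) stand above all others in every track.

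Beyond the end of Hsp83 a weaker peak, with a signal of 64.5, was past the threshold in the pooled list but not in the conservative list. It lay 16 bp upstream of the start of the next gene, CG14966. Replicate 2 gave 38.2 there, and the ranked peaks of replicate 1 nearest to it gave 12.3 and 30.4. The list of replicate 1 had another peak within 2 kb of Hsp83, with a signal of 59.0, 3 bp from the start of CG32276. It overlapped a conservative peak that was not counted for Hsp83, because the conservative summit lay beyond 2 kb.

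DnaJ-1 encodes a J protein that hands substrates to Hsp70. Its peak, chr3L:5751933-5752268, had a signal of 62.1 at rank 3695, above 12.1% of the list. Replicate 1 read 33.4 and replicate 2 read 44.1, a mean of 38.8 ± 7.61 (SD, n = 2). It was past the threshold in replicate 2 alone (global IDR 0.00122) and missed it in replicate 1 (0.0155). The summit lay 88 bp downstream of the start, in the 5′ UTR. Upstream, across the start, the sequence holds 1 pair of heat shock units, shown as chr3L:5752180-5752205 on the minus strand, with its centre 91 bp from the summit.

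DnaJ-1: aagcatccaGAAATTTCgacgtagac

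Hsf, the regulator, had a weak peak almost exactly at its start. The summit was 9 bp upstream of it, at chr2R:18134475-18134810, with a signal of 54.9 at rank 3895. The summits of replicates 1 and 2 lay on the other side, 24 and 36 bp downstream of the start. Replicate 1 read 37.0 and replicate 2 read 33.4, a mean of 35.2 ± 2.53 (SD, n = 2), so the replicates were close. Neither replicate alone had it past the threshold, with global IDR 0.0183 and 0.0121. The next gene start, of the Polycomb group gene Pcl, was 783 bp from the summit.

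Hsc70-4 encodes the main constitutive Hsp70 relative of the fly and had no peak past the threshold in any of the 4 lists. Its strongest ranked peak had a signal of 54.7 and a global IDR of 0.02, 21 bp downstream of its first start. That signal is close to the 54.9 at Hsf, and they stood at ranks 6675 and 6622 of 108273. Hsf passed the threshold with a global IDR of 0.00544, so genes of nearly equal signal lay on either side of it. At the Hsc70-4 peak replicate 1 gave 33.3 and replicate 2 gave 22.5. The strongest ranked peak of replicate 2 near a start of this gene, 33.1, lay elsewhere, 31 bp upstream of the start at 15243156.

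The promoter window of this inner Hsc70-4 start held 4 pairs of heat shock units, overlapping ones counted, as did that of the start at 15243198, which covers nearly the same bases. No other start of the 10 genes had as many, and 0.0415% of all promoters did. The first ones overlap in a triple of alternating units, found in 0.42% of promoters, which lies in the 5′ UTR of the transcript from the start at 15242890. They are shown because this is the gene without a peak past the threshold, first the triple, chr3R:15242945-15242970, and then the bases from there to the start, chr3R:15242971-15243155, both on the plus strand with the pairs in capitals.

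Hsc70-4 triple: caaggtTTCTCGAACTTTCgacccca

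Hsc70-4 inner promoter: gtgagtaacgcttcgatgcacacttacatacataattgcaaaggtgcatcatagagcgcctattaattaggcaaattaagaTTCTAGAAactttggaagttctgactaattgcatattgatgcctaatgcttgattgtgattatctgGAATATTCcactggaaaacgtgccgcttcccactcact

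Heat shock units and GAGAG were then counted over all summits and promoters, on both strands. A pair of heat shock units was present within 100 bp of 3 of the 7 summits, at Hsp83, Hsp26 and DnaJ-1, and of 9.51% of the 4195 conservative summits. Within 250 bp all 7 had one, against 21.7%, and the distances ran from 19 bp at Hsp26 to 234 bp at Hsp22. GAGAG lay within 100 bp of 2 of the 7, Hsp26 and Hsp22, and of 33.1% of all summits. TATAAA lay within 100 bp of 3 of the 7, against 22.2% of all. The Dref element TATCGATA lay within 100 bp of none of the 7 and of 2.98% of all. The AP-1 site TGANTCA was found at DnaJ-1 alone, against 4.24% of all.

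In promoters, 7 of the 10 genes had a pair of heat shock units at a start, and Hsp27, Hsp67Ba and Hsf had none. Among all protein-coding genes 19.7% had one. The share was 22.3% among the 2350 genes with a conservative summit within 500 bp of a start and 19.1% among the other 11618. These are matches of letters in a window and do not say whether the factors were bound.

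Base composition varied among the 7 sites. Hsp26 and Hsp22 had 31.3% and 29.9% G and C within 100 bp of the summit, and 8.37% and 4.82% of all conservative summits were lower. DnaJ-1 (38.3%) and Hsf (38.8%) were nearer to the median of 42.8%, and the promoter of Hsp83 was the single site of the 7 above it.

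Other chaperone and heat shock genes were described from lists, 65 protein-coding genes in all. Of these 24 (36.9%) had a conservative summit inside or within 2 kb, against 29.0% of all protein-coding genes. Within 500 bp of a start 14 (21.5%) had one, against 16.8%. Among 13 factors that act at heat shock promoters or in transcript elongation, 7 had one within 2 kb. Trl, which encodes GAGA factor, had the strongest at 409, with 201 in replicate 1 and 205 in replicate 2, followed by Nelf-E at 292, a subunit of the complex that holds polymerase paused, and Spt5 at 224. The Nelf-E summit was nearer to the start of RpL14 and the Spt5 summit nearer to that of RpL11. TH1 and Nelf-A, further subunits of the pausing complex, had 178 and 84.9, and the histone chaperone genes dre4 and Spt6 had 125 and 74.6. The Spt6 summit lay 180 bp from the start of schlank and 749 bp from its own. Parp1 and Cdk9 had none.

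Of 9 other J proteins 4 had a peak, all within 500 bp of their own start. The strongest was at mrj, with a signal of 306 at rank 198, 126 in replicate 1 and 193 in replicate 2. This is more than the 62.1 at DnaJ-1, and CG5001 (135) was also higher, while the conservative peak of P58IPK (62.0) was close to it. The DnaJ-H peak, at rank 3771, lay nearer to the start of Sirt1. Droj2 and Csp had none.

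Among 9 Hsp90 relatives and cochaperones 5 had a peak within 2 kb, at signals of 183 for Stip1, 125 for Cdc37, 93.6 for Trap1, 89.3 for Gp93 and 73.8 for p23. All were below the 412 of Hsp83. The Stip1 summit lay 30 bp from the start of Pi3K21B and 2728 bp from its own, the Trap1 summit 151 bp from Vha16-1 and 3552 bp from its own, and the Cdc37 summit was nearest to starts of alpha-Spec and dlt, while those of Gp93 and p23 were 36 and 134 bp from their own starts. Of the 5, 3 had a summit within 500 bp of their own start. Sgt1 and CG1416 had none in the conservative list, although Sgt1 had a peak in the list of replicate 1.

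Of 13 chaperonin genes 3 had a peak within 2 kb, CG11267 (168), CCT5 (123) and CCT3 (82.0), and 0 had it within 500 bp of their own start. These 3 summits lay 131 bp from the start of Icmt, 100 bp from Oda and 36 bp from CG10324. Hsp60A and CCT1 had none. Of 5 other Hsp70 relatives, Hsc70-3 (84.4) and Hsp110 (73.5) had one, and Hsc70-1 and Hsc70-5 did not. Of 6 other small heat shock genes 3 had one: CG14207 (119), and CG4461 and CG4456, which lie in the 67B cluster and share the peaks of Hsp26 and Hsp22. CG7409 and l(2)efl had none, and neither did stv and HIP among the 3 Hsp70 cofactors. All these counts are from the conservative list. Hsc70-5, Hsp60A and stv had a peak past the threshold in the pooled list. They also had one in the list of replicate 2 but not in that of replicate 1. Their strongest ranked peaks of the pair within 2 kb had signals of 91.2, 69.0 and 76.2. At l(2)efl only the list of replicate 2 had a peak.

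**Figure D5:**
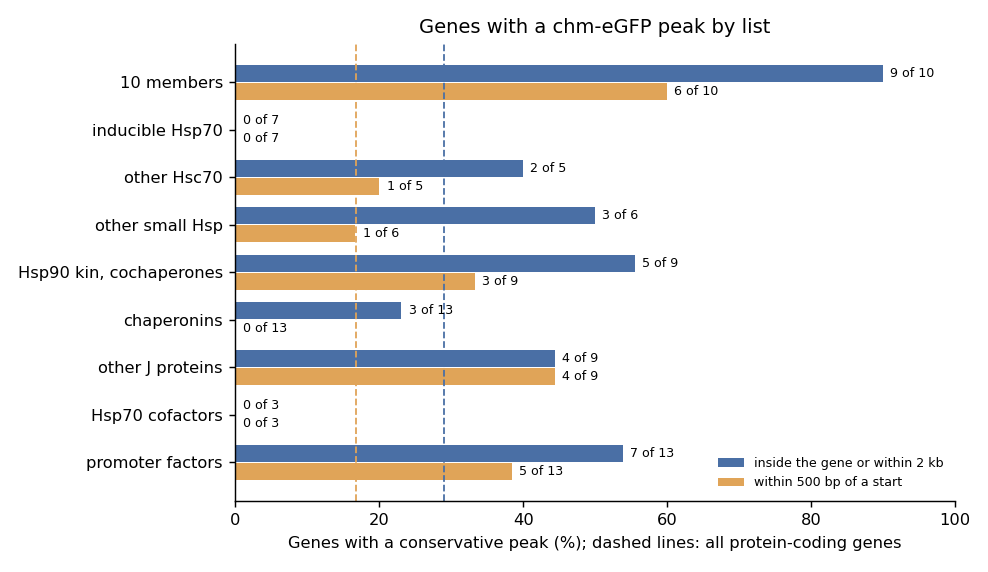
Share of genes (%) in each list with a conservative summit inside the gene or within 2 kb (blue) or within 500 bp of a start (orange), with counts at the bars and the shares of all protein-coding genes, 29.0% and 16.8%, as dashed lines. The inducible Hsp70 genes have 0 of 7, and the 10 genes described here have 9 and 6.

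The inducible Hsp70 genes, the classic heat shock targets, had no conservative peak in 7 genes, but here the list and the ranked peaks differed. Hsp70Ba had a ranked peak with a signal of 166, global IDR 0.000126, 77 bp from its start, at 81.7 in replicate 1 and 83.2 in replicate 2. Hsp70Ab had one with a signal of 123, global IDR 0.000559, 29 bp from its start, at 56.0 and 67.5. Both are higher than the signals at Hsp22, DnaJ-1 and Hsf in the same ranked list, and their global IDR was below that of these 3 genes. They are among 187 of 4382 ranked peaks on the arms that had a global IDR of at most 0.00999, the largest in the conservative list, and were still not in it. Why is not given in the sources used here. Hsp70 genes are near-identical copies, among which reads cannot be placed with certainty, so these values are uncertain. At Hsp68 and Hsp70Aa the strongest ranked peaks within 2 kb had signals of 24.4 and 13.4. The same omission touched P58IPK, with a ranked peak of 158 (global IDR 0.00019, 66.4 in replicate 1 and 94.0 in replicate 2) that lay 93 bp from the start of CG8312, and the stress RNA gene lncRNA:Hsromega, at 96.2 (global IDR 0.00114, 49.7 and 52.9). None of the 10 genes had such an omitted peak.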

How the data were processed

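Chromatin immunoprecipitation peaks of chm-eGFP were analysed from both samples, grouped by the replicate number in the labels. The authors deposited peak lists on dm6, per the labels, for each sample and for both together. The control experiment that the labels name was not used here. Aligner, peak caller and control: not given in the sources used here. Each deposited peak has a signal of unstated scale, a score that rescales the IDR (830 or more past the threshold) and, in ranked lists, the −log10 of its global IDR.

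Summits were placed on Ensembl release 115 gene models, and sequence was read from the RefSeq release 6 genome (dm6). No peak on the 7 arms ran past the end of its arm. Of the 4202 conservative peaks 4195 lay on the arms, and peaks elsewhere were not placed on genes. Replicate values came from each sample's own ranked list (50% of the shorter peak shared, nearest summit), and SDs over 2 replicates may be in part technical and hold any difference in scale. The members, lists and motifs were chosen with earlier results of these data known, so nothing was tested. Named genes were all members, the listed genes with a peak and up to 2 without, genes nearer to a peak, and the rank neighbours of Hsp83. The values of peaks omitted from the conservative list were chosen after they were seen. The sequences shown were chosen to carry the results. Of the listed symbols, 7 were matched through synonyms. Python 3.11.15, pandas 2.3.3 and numpy 2.4.6 were used, and counting was tested on simulated data.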

Additional observations from a re-analysis of the deposited data

How the results depend on the processing

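The count of genes with a peak, 9 of 10, was within 1.5 times under 12 of 15 alternatives. That bound is loose, since the ceiling is 10 and a fall to 6 still meets it. The count was 6 by nearest start alone (16.5% of all genes) and 6 within 500 bp of a start (16.8%). It was 7 with windows of 500 bp or 1 kb (21.2% and 24.0% of all genes), 10 with 5 kb (40.2%), 9 in the pooled list (35.7%) and 6 to 7 in the list of a single replicate (24.4% of all genes in replicate 1 and 29.4% in replicate 2). Among the stronger 50% of conservative peaks it fell to 5 (19.1%). Within 500 bp of a start, alternatives added after the data were seen gave 4 in the list of replicate 1 (13.5%, without DnaJ-1 and Hsf) and 4 in that of replicate 2 (17.2%, without Hsp22 and Hsf). The 4 peaks shared by both replicates were 4 with any shared base and with 80% of the shorter peak. With 250 bp to each side, 7 summits held a pair of heat shock units against 3 within 100 bp, and with 50 bp, 1 held GAGAG against 2; both follow the width searched. No paired analysis was possible because the replicates form 1 group. The unknown depth and signal scale limit all values, and no fold enrichment can be given.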
